A study of Mus musculus with 4 samples.

Results

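The genes described are 9 that carry the interferon (IFN) signal from the cell surface to the nucleus or restrain it: the receptor chains Ifngr1, Ifngr2, Ifnar1 and Ifnar2, the Janus kinases Jak1 and Jak2, the transcription factor Stat2, and the brakes Socs1 and Ptpn2. They were chosen by name, as the rows of the gene table whose symbol equals one of these, and all 9 were found among 24532 genes. All 9 were above 1 FPKM in each of the 4 libraries, so none was lost to a filter. Gene positions are those of RefSeq on GRCm38.p6, the assembly that the submitters call mm10.

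RNA was sequenced from articular cartilage of wild type C57BL/6 mice, with 1 library for each of 4 groups: sham-operated and injured cartilage of young mice, and sham-operated and injured cartilage of adult mice. The young mice were 3 weeks old, and the adult mice were 12 weeks old by the sample titles and 14 weeks old by the age field of the same samples, while the study's text gives a younger adult age. Cartilage was taken on day 3, except that the adult sham library is labelled as days 3 to 14. The labels call the injury destabilization of the medial meniscus (DMM), whereas the study's text describes a full-thickness cartilage injury. All groups were wild type, and no group carried a transgene, a deletion or a drug. Each library came from a pool of male mice, with more mice in the injured than in the sham pools, so the spread between mice is not known and no difference below has a replicate check, a standard deviation or a p-value. The values are FPKM, numbers of sequenced fragments corrected for transcript length and for library size, so that levels of different genes can be set side by side. Where 4 values follow each other they stand for the young sham and injured libraries and then the adult ones in the same order.

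Type II IFN, IFN-γ, binds a receptor built of Ifngr1, the ligand-binding chain, and Ifngr2, which brings Jak2 to the complex, while Jak1 sits on Ifngr1. The type I IFNs, IFN-α and IFN-β, bind Ifnar1 and Ifnar2, where Tyk2 and Jak1 are the kinases, and Stat2 with Irf9 forms part of the transcription complex that they activate. Socs1 is induced by the signal and blocks the kinases, and Ptpn2, also called TC-PTP, is a phosphatase that removes phosphate from Janus kinases and STATs. Apart from the induction of Socs1, these steps run by phosphorylation of proteins that are already present, which RNA levels do not measure.

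The complex with Stat2 binds the IFN-stimulated response element, searched here as TTTC, any 2 bases and TTTC again, and STAT dimers bind the gamma-activated site, searched as TTCNNNGAA. Both strands were read in the 300 bases from 250 before to 50 after each transcription start (RefSeq, GRCm38.p6). A promoter was matched for 8 of the 9 genes, all but Ptpn2. The response element was found for Stat2 and Socs1 and the gamma-activated site for Ifnar1 and Ifnar2, so that 4 of 8 promoters held either motif and 4 of 8, those of Ifngr1, Ifngr2, Jak1 and Jak2, held neither. Among all 32851 promoters of that table, 3.44% held the response element, 8.30% the gamma-activated site and 11.3% either. The promoters of the transcription factor and of a brake are shown with their matches in capitals, and that of the ligand-binding chain of the IFN-γ receptor as one with no match. They lie at chr10:128270248-128270547 (plus strand) for Stat2, chr16:10785487-10785786 (minus strand) for Socs1 and chr10:19591699-19591998 (plus strand) for Ifngr1.
Stat2: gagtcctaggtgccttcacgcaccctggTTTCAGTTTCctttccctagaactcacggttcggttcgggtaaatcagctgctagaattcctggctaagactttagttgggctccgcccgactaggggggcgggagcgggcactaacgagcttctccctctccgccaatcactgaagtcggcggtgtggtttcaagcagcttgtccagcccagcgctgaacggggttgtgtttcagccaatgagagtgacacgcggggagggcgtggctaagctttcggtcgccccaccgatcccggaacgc
Socs1: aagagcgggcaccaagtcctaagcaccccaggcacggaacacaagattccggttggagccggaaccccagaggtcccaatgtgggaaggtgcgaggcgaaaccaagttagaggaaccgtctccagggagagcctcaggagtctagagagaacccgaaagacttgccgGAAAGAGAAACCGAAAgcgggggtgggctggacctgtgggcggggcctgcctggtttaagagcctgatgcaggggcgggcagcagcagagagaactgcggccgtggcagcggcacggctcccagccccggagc
Ifngr1: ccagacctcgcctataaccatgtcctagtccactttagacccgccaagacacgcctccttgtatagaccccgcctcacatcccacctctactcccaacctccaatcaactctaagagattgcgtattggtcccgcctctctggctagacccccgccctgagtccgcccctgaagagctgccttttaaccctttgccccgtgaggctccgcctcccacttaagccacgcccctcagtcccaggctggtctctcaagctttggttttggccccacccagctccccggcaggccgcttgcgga
The Stat2 match, TTTCAGTTTC, begins at position −222 from the start. In Socs1 a pair of matches to the reverse strand, GAAAGAGAAA and GAAACCGAAA, overlap and begin at −83 and −77. In Ifnar1 the gamma-activated site reads TTCACGGAA and begins at −5, and in Ifnar2 it reads TTCCTGGAA and begins at −214. The windows of 6 genes start from the first base of the gene given here, while those of Ifnar1 and Jak1 belong to starts 183 and 59 bases further into the gene, at 91485215 and 101265223. A match is a stretch of letters and not a measured binding site, and its absence says only that these letters are not in the window.

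In the level per transcript length, Ifnar2 was the highest of the 9 genes in young sham (30.2 FPKM), adult sham (31.6 FPKM) and adult injured cartilage (42.2 FPKM). In young injured cartilage Ptpn2 was first with 44.2 FPKM and Ifnar2 second with 42.3 FPKM. Socs1 was the lowest in all 4 libraries, between 2.98 and 4.82 FPKM, and lay near the middle of all genes above 0, with 46.1% to 50.7% of them lower. Ifnar2 stood above 87.9% to 91.5% of the genes above 0. The gene that varied most between libraries was Ptpn2, with a highest value 3.92 times the lowest, followed by Stat2 at 2.94 times and Ifngr2 at 2.57 times. For the other 6 genes the highest value was 1.33 to 1.63 times the lowest. The adult sham library gave the lowest FPKM for 8 of the 9 genes, all but Ifnar2.

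The adult sham library was also lower for the median gene, and this touches every ratio that uses it. Its summed FPKM was not the lowest, the sums being 492173, 533468, 502965 and 469939. Over the 10891 genes at 1 FPKM or more in all libraries, the median log2 ratio of FPKM + 1 was −0.30 for adult against young sham cartilage, 0.23 for injury in adult cartilage, −0.038 for injury in young cartilage and 0.068 for young against adult injured cartilage. Ratios are therefore given as deposited and, beside them, after median-of-ratios scaling, which divides each library by its typical ratio to the average library (1.10, 1.11, 0.809 and 1.02) and brings the 4 medians to between −0.057 and 0.069. In the scaled values the lowest library was young sham for Ifngr1, Ifnar1, Ifnar2 and Jak1 and adult sham for the other 5 genes. After scaling, the highest value of Ptpn2 was 2.92 times the lowest, that of Stat2 2.14 times and that of Ifngr2 2.03 times.

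**Figure D1:**
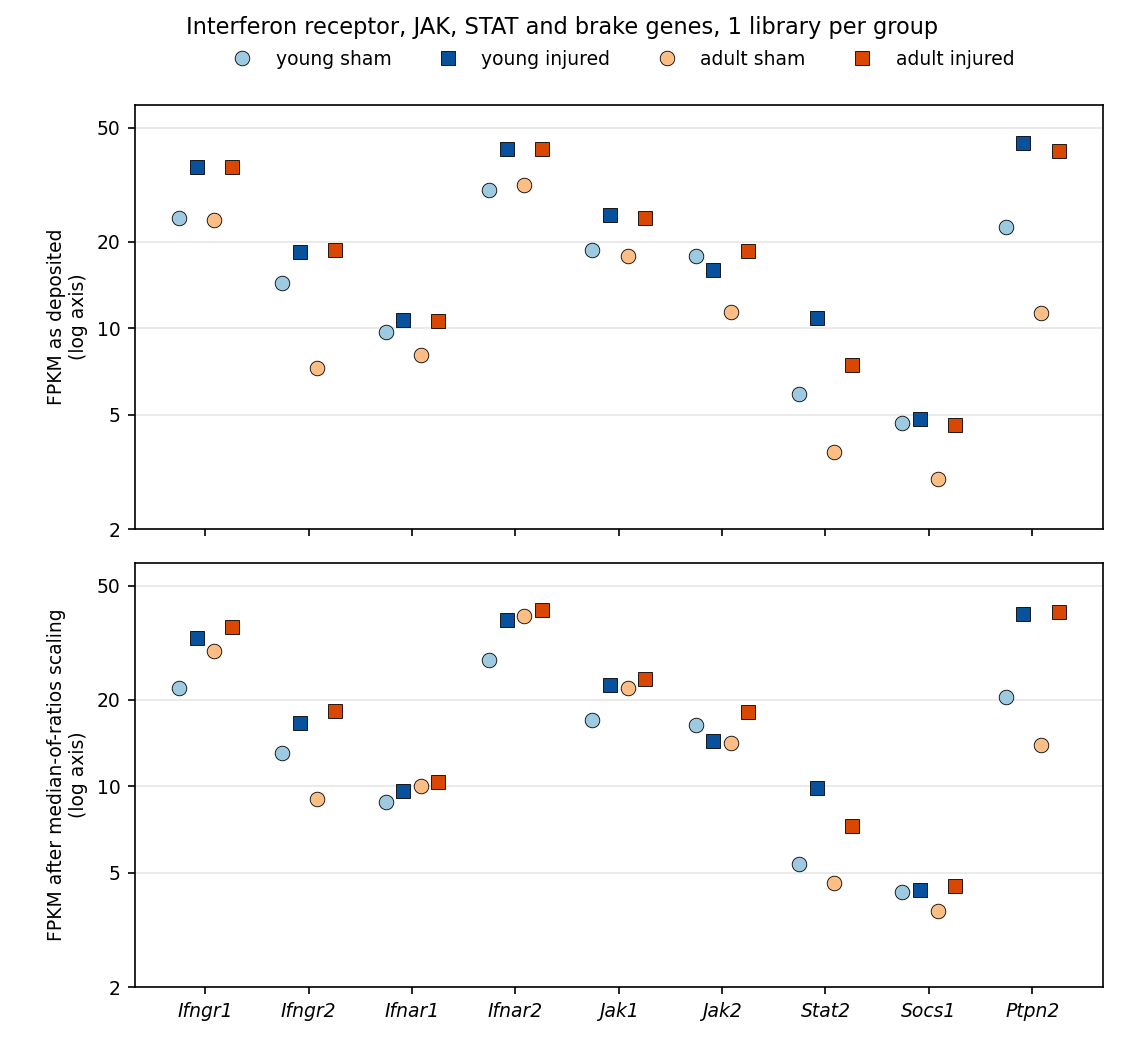
Levels of the 9 genes in each of the 4 libraries, as deposited (upper panel) and after median-of-ratios scaling (lower panel), in FPKM on a log axis, with circles for sham and squares for injured cartilage. Adult sham is lowest for 8 of 9 genes as deposited and for 5 of 9 after scaling, and the injured libraries of both ages lie close together except for Stat2 and Jak2.

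Ifngr1 (Entrez Gene 15979, chr10:19591949-19610229) had 24.2 FPKM in the sham and 36.5 FPKM in the injured library of young mice, and 23.9 and 36.6 FPKM in those of adult mice. Both injured libraries were above both sham libraries, and the libraries of the same treatment were nearly equal at the 2 ages. The injured library was 1.51 times the sham library in young and 1.53 times in adult cartilage, which is 0.57 and 0.59 as a log2 ratio of FPKM + 1. After scaling these ratios were 0.56 and 0.27, so the near equality of the ages held only for the values as deposited.

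Ifngr2 (Entrez Gene 15980, chr16:91547059-91564007), the other chain of the IFN-γ receptor, had 14.4 FPKM in the sham and 18.4 FPKM in the injured library of young mice, and 7.30 and 18.7 FPKM in those of adult mice. The adult sham library stood apart from the other 3, while the injured libraries were alike. After injury its log2 ratio reached 0.34 in the young and 1.25 in the adult (0.32 and 0.95 after scaling), and the adult value lay above those of 95.9% of the 18181 genes that were above 0 in at least 1 library. Within a library, where scaling has no part, Ifngr1 was 1.68 and 1.98 times Ifngr2 in sham and injured cartilage of young mice and 3.28 and 1.95 times in that of adult mice. The chains of the IFN-γ receptor were thus furthest apart in adult sham cartilage.

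Ifnar1 (Entrez Gene 15975, chr16:91485032-91510523) had 9.71, 10.7, 8.09 and 10.6 FPKM. It varied least of the 9 genes, with an injury log2 ratio of 0.13 for young and 0.35 for adult mice (0.11 and 0.047 after scaling). Ifnar2 (Entrez Gene 15976, chr16:91372783-91405589) had 30.2, 42.3, 31.6 and 42.2 FPKM in the same order, with log2 ratios of 0.47 and 0.40 (0.45 and 0.075 after scaling). Both genes of the type I receptor were higher in the injured than in the sham libraries of both ages, by less than 1.4-fold. In adult cartilage almost all of that difference was gone after median-of-ratios scaling. It was not gone on values rescaled to the same sum (TPM), where the adult ratios of Ifnar1 and Ifnar2 were 0.46 and 0.51. After quantile normalization they were 0.051 and 0.20. Ifnar2 was 3.11 times Ifnar1 in young sham and 3.91 to 3.98 times in the other 3 libraries. Ifnar2, Ifnar1 and Ifngr2 lie in one cluster on chromosome 16, with Il10rb between Ifnar2 and Ifnar1. Ifnar2 shared 315 bases, 9.46% of its exonic bases, with Gm21970 on the same strand, so a part of its fragments could have been assigned to either gene; Gm21970 has no value in the table used here.

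Jak1 (Entrez Gene 16451, chr4:101151974-101265282), the kinase that serves both IFN receptors, had 18.8 FPKM in the sham and 24.9 FPKM in the injured library of young mice, and 17.9 and 24.2 FPKM in those of adult mice. Both injured libraries were again above both sham libraries, with log2 ratios of 0.39 for young and 0.42 for adult mice (0.37 and 0.095 after scaling). Jak2 (Entrez Gene 16452, chr19:29251803-29313095), the kinase of the Ifngr2 chain, had 17.9, 16.0, 11.4 and 18.6 FPKM in the same order. It was the only one of the 9 genes that was lower, as deposited, in the injured than in the sham library at 1 age, its log2 ratio being −0.15 for young and 0.66 for adult mice (−0.17 and 0.34 after scaling), and the signs held on all 4 scales tried. Jak1 and Jak2 were almost level in young sham cartilage, with a ratio of 1.05, and Jak1 was 1.30 to 1.56 times Jak2 in the other libraries.

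Stat2 (Entrez Gene 20847, chr10:128270498-128292853) had 5.89 FPKM in the sham and 10.9 FPKM in the injured library of young mice, and 3.71 and 7.46 FPKM in those of adult mice. Young injured was the highest and adult sham the lowest library on both scales. The injured library was 1.85 times the sham library in young and 2.01 times in adult cartilage. Because 1 FPKM is added before the logarithm, which weighs more at such levels, the log2 ratios were 0.79 and 0.84 (0.77 and 0.57 after scaling), short of the 1.00 that counts as 2-fold here. In the injured cartilage of the 2 ages, Stat2 was the member with the largest difference, with 1.46 times the adult level in young (log2 ratio 0.49, 0.39 after scaling), except on TPM, where Jak2 at −0.39 lay further from 0 than Stat2 at 0.35. Irf9, its partner in the type I complex, had 7.98, 18.0, 6.15 and 12.7 FPKM, so that Stat2 was 0.738 of Irf9 in young sham and 0.588 to 0.607 of it in the other libraries.

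Socs1 (Entrez Gene 12703, chr16:10783808-10785536), the brake that the IFN signal itself induces, had 4.69 FPKM in the sham and 4.82 FPKM in the injured library of young mice, and 2.98 and 4.60 FPKM in those of adult mice. It was nearly level in 3 libraries and lower in adult sham. The injury log2 ratio was 0.032 in young cartilage (0.019 after scaling, and below 0 at −0.069 on TPM and −0.011 after quantile normalization) and 0.49 in adult cartilage (0.23 after scaling).

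Ptpn2 (Entrez Gene 19255, on chromosome 18), the phosphatase, had 22.5 FPKM in the sham and 44.2 FPKM in the injured library of young mice, and 11.3 and 41.6 FPKM in those of adult mice. The injured libraries were close to each other and well above both sham libraries on both scales. The injured library was 1.96 times the sham library in young and 3.69 times in adult cartilage (1.94 and 2.92 times after scaling). The log2 ratio of 0.94 in young cartilage lay just short of the threshold and above those of 95.0% of the genes tested, and the 1.79 in adult cartilage (1.48 after scaling) lay above those of 98.4%. Ptpn2 was 4.80 and 3.78 times Socs1 in young and adult sham cartilage, against 9.16 and 9.03 times in young and adult injured cartilage.

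To see what injury did at each age, the injured library was compared with the sham library of the same age, with 2-fold or more on log2(FPKM + 1) counted as a difference. In young cartilage 0 of the 9 genes passed, where 4.57% of the genes tested were higher and 1.27% lower, and 8 of the 9 log2 ratios were above 0, with a median of 0.39 (0.37 after scaling) against 0.00 over all genes tested. In adult cartilage 2 of the 9, Ifngr2 and Ptpn2, were higher and 0 lower, where 6.9% of the genes tested were higher and 1.46% lower, and 9 of 9 ratios were above 0, with a median of 0.59 against 0.14 over all genes. After scaling 1 of the 9, Ptpn2, was past 2-fold in adult cartilage, where 4.41% of the genes were higher, and the median was 0.27 against 0.00. On TPM 3 of the 9, Ptpn2 at 1.93, Ifngr2 at 1.40 and Stat2 at 1.01, were past 2-fold in adult cartilage, where 12.8% of the genes were in either direction. All 9 ratios stayed above 0 in adult cartilage on FPKM, TPM, median-of-ratios and quantile scales, and 7 of 9 did in young cartilage, the exceptions being Jak2, below 0 on all of them, and Socs1, which changed sign.

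**Figure D2:**
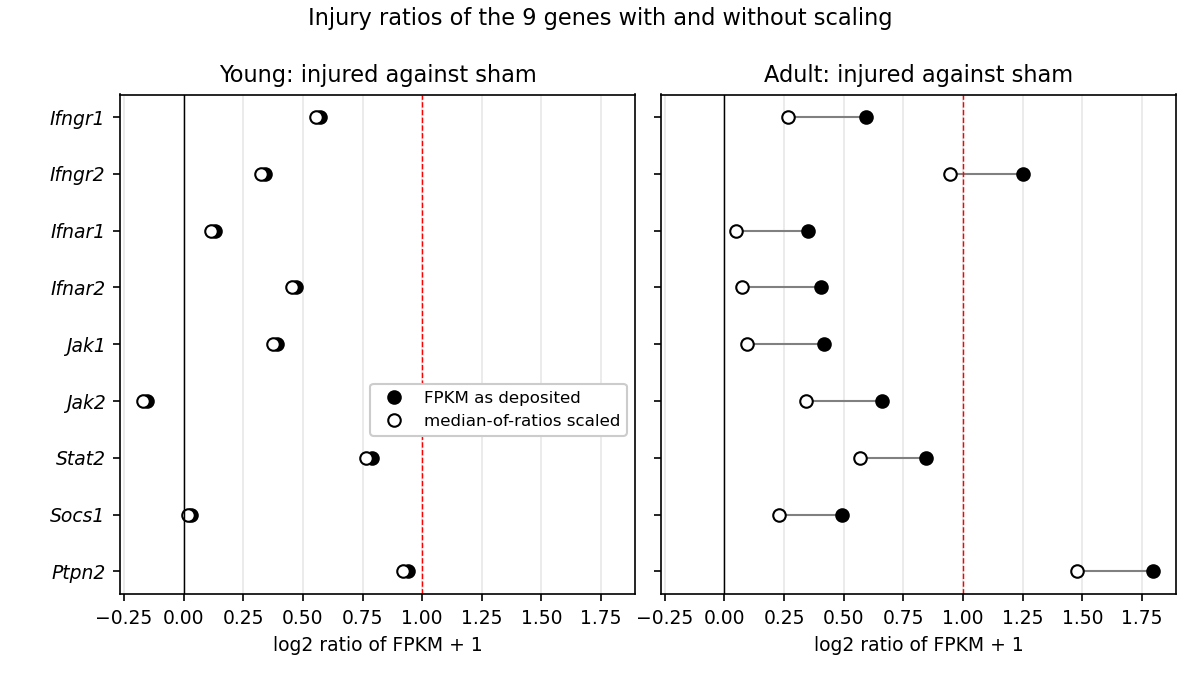
Log2 ratio of FPKM + 1 of injured against sham cartilage for each of the 9 genes in young (left) and adult (right) mice, as deposited (filled) and after median-of-ratios scaling (open), with 2-fold marked by the dashed line. In adult cartilage scaling lowers every ratio, taking Ifngr2 from 1.25 to 0.95, and Ptpn2 at 1.48 alone stays past 2-fold.

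The libraries were also compared between the ages within a treatment. In sham cartilage 0 of 9 genes differed by 2-fold or more between adult and young mice, where 13.3% of the genes tested did (2.66% higher and 10.6% lower in adult), and 8 of the 9 ratios were below 0, all but Ifnar2, with a median of −0.52 against −0.15 over all genes. The lowest were Ptpn2 with a log2 ratio of −0.94 and Ifngr2 with −0.89, and after scaling these were −0.53 and −0.49. In FPKM alone, at 22.5 and 11.3, Ptpn2 differed by 2-fold as deposited, and it fell short only through the added 1 FPKM. The scaled median was −0.17, and Ifngr1, Ifnar1 and Jak1 changed sign, from −0.014, −0.24 and −0.067 to 0.41, 0.16 and 0.35. Ptpn2, Ifngr2, Jak2, Stat2 and Socs1 were below 0 on all 4 scales and Ifnar2 above 0.

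In injured cartilage 0 of 9 genes differed by 2-fold or more between young and adult mice, where 4.89% of the genes tested did, and the member median was 0.016 (−0.090 after scaling) against 0.042 over all genes (0.00 after scaling). Apart from Stat2 at 0.49 and Jak2 at −0.21, the ratios of young against adult injured cartilage lay between −0.021 and 0.086, and after scaling between −0.13 and −0.028. Ifnar1, Ifnar2, Jak1, Socs1 and Ptpn2 were above 0 as deposited and below 0 after scaling. Stat2 was above 0, and Ifngr1, Ifngr2 and Jak2 below 0, on all 4 scales.

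The injury ratio of the young minus that of the adult was the difference of 2 comparisons that share no library. As deposited it was below 0, that is larger in adult cartilage, for 8 of 9 genes, all but Ifnar2 at 0.066, with a median of −0.22 against −0.12 over all genes. After scaling it was below 0 for 4 of 9 genes, with a median of 0.068 against 0.0046. The 4 that were below 0 on every scale tried were Ifngr2 at −0.91, Ptpn2 at −0.85, Jak2 at −0.81 and Socs1 at −0.46 (−0.62, −0.56, −0.51 and −0.21 after scaling). For Ifngr1, Ifnar1, Ifnar2, Jak1 and Stat2 the sign depended on the scale. As deposited 0 of 9 genes differed by a log2 ratio of 1 or more between the ages, where 6.25% of the genes tested did, and after scaling also 0 of 9, where 5.76% did. On TPM 3 of 9 passed, Ifngr2 at −1.16, Ptpn2 at −1.09 and Jak2 at −1.05, where 12.7% of the genes did. For Ifngr2 and Ptpn2 the comparison of the sham libraries gives the other side of the same values, since the injured libraries were alike and the adult sham library was low.

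**Figure D3:**
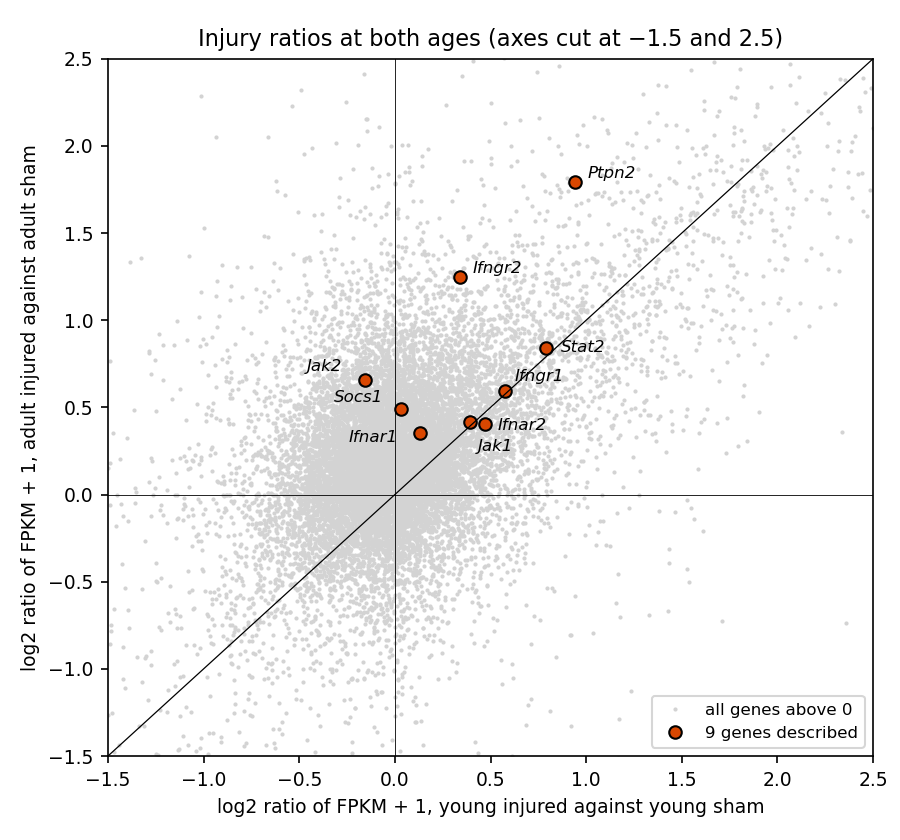
Log2 ratio of FPKM + 1 after injury in young (horizontal axis) and adult cartilage (vertical axis) for all genes above 0 (grey, axes limited to −1.5 and 2.5) and the 9 genes (red), with the line of equal ratios. Ifngr1, Jak1, Ifnar2 and Stat2 lie close to the line, and Ptpn2, Ifngr2, Jak2 and Socs1 lie above it.

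The ligands of these receptors were close to absent from the libraries. Of 21 IFN genes looked up, 6 were above 0 in any library, and none reached 0.2 FPKM. Ifng, which encodes IFN-γ, was listed at 0 in 3 libraries and at 0.0322 FPKM in adult injured cartilage. Ifnb1 was listed at 0.0493 FPKM in young injured cartilage alone, Ifna1 at 0.0657 and Ifna4 at 0.0603 FPKM in adult injured cartilage alone, and Ifna6 at 0.0570 FPKM in adult sham cartilage alone. Ifnz was listed in all 4, at 0.124, 0.0719, 0.0777 and 0.0507 FPKM. At such levels no difference between the libraries was detectable, and IFN made in other tissues would not be seen in this RNA.

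Of 27 further receptors, kinases, transcription factors and brakes of the pathway, all above 0, 7 were higher by 2-fold or more after injury in young cartilage, where 4.57% of all genes were, and 7 in adult cartilage, where 6.9% were, and 0 were lower in either. Of 4 other receptors and kinases 2 passed at each age: Il10rb, a receptor chain of IFN-λ and interleukin-10, with 5.77, 15.8, 7.12 and 16.1 FPKM and log2 ratios of 1.31 for young and 1.08 for adult mice (0.77 for adult mice after scaling), and Jak3, a kinase of blood cells, with 1.05 and 1.33 (0.98 for adult mice after quantile normalization). Il10rb and Ifngr2, receptor chains of the same chromosome 16 cluster, thus differed in sham cartilage, where the adult library was the lower one for Ifngr2 and not for Il10rb. Tyk2, the kinase of Ifnar1, had 6.73, 7.48, 10.1 and 9.52 FPKM and ratios of 0.13 and −0.084 (0.12 and −0.39 after scaling, and 0.0052 in adult cartilage on TPM).

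Of 7 other transcription factors, Irf9 was past 2-fold in young cartilage at 1.08 and below it in adult cartilage at 0.94 (1.05 and 0.64 after scaling, and past 2-fold at both ages on TPM at 1.01 and 1.08). Stat3, the main STAT of interleukin-6 signalling, had 24.6 FPKM in the sham and 35.0 FPKM in the injured library of young mice, and 11.1 and 48.6 FPKM in those of adult mice, with log2 ratios of 0.49 and 2.03. Like Ifngr2 and Ptpn2 it was lowest in adult sham cartilage, at −1.08 against young sham (−0.67 after scaling).

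Of 16 other brakes 4 passed at each age as deposited, and 3 in adult cartilage after quantile normalization, where Socs2 fell short. Socs3, the brake of interleukin-6 signalling, had 5.54, 21.8, 4.67 and 29.7 FPKM with log2 ratios of 1.80 and 2.44, in contrast to the 0.032 and 0.49 of Socs1. Ptpn6, a phosphatase of blood cells also called SHP-1, had ratios of 1.71 and 1.92, and Ptprc, the leukocyte surface phosphatase CD45, had 1.77 and 2.11. Usp18, which binds Ifnar2 and blocks type I signalling, had 1.24 FPKM in the sham and 12.2 FPKM in the injured library of young mice, and 1.70 and 3.19 FPKM in those of adult mice, with ratios of 2.56 and 0.63, and was the 1 gene of the 27 past 2-fold between young and adult injured cartilage, as 3.09% of all genes were (log2 ratio 1.66, 1.54 after scaling). Socs2, a brake of growth hormone signalling, had 9.49, 4.91, 2.74 and 8.25 FPKM, the ratio being −0.83 for young and 1.31 for adult mice (0.94 for adult mice after quantile normalization). In sham cartilage 4 of the 27 were lower in adult than in young mice by 2-fold or more, as 10.6% of all genes were, Stat3, Socs2, Socs4 and Cish, of which the last pair are named after their values were seen. After scaling 3 of the 27, all but Stat3 of these, were lower by 2-fold or more, as 5.13% of all genes were.

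**Figure D4:**
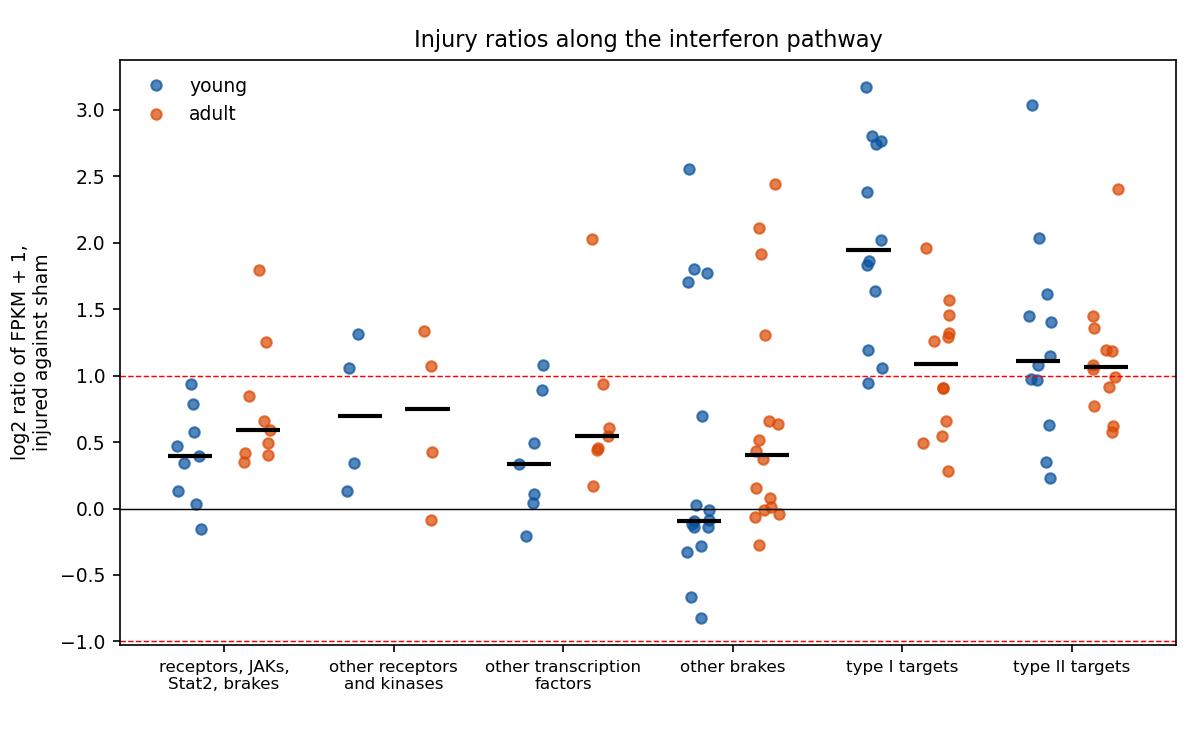
Log2 ratio of FPKM + 1 after injury in young (blue) and adult cartilage (orange) for every gene of 6 lists along the IFN pathway, with the median as a bar and 2-fold as dashed lines. Medians of the 9 genes are 0.39 and 0.59, those of 12 type I targets 1.94 and 1.08, and those of 12 type II targets 1.11 and 1.06.

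The genes that IFN switches on were counted next to the 9 genes of the signal path. They are listed as type I or type II targets, and whether a listed gene answers to 1 type alone was not tested. The response element was found in 4 of 10 promoters of type I targets and in 7 of 11 of type II targets, against 3.44% of all promoters. Of 12 type I targets, 11 in young and 6 in adult cartilage were higher by 2-fold or more after injury, with medians of 1.94 and 1.08 (1.87 and 0.85 after scaling, with 11 and 4 past 2-fold against 4.36% and 4.41% of all genes). In young cartilage the 3 highest were Ifit3 at 3.17, Oasl2 at 2.80 and Ifit1 at 2.76. In adult cartilage these had ratios of 0.28 (−0.029 after scaling), 1.96 and 0.90. Of 12 type II targets, 7 were past 2-fold at each age, with medians of 1.11 and 1.06 (1.09 and 0.91 after scaling, with 7 and 5 past 2-fold), and the 3 highest in young cartilage were Cxcl10 at 3.03, Psmb8 at 2.04 and Igtp at 1.61, against 2.40, 1.36 and 1.08 in adult cartilage. These were chosen as the highest in young cartilage. Over the whole list the ratio was larger in young than in adult mice for 12 of 12 type I targets (12 after scaling and 11 on TPM). It was larger in young for 6 of 12 type II targets (8 after scaling and 5 on TPM), with Cxcl9, at 0.23 and 1.19 and named after its values were seen, among those that were not. The lists were chosen with earlier results of these data known, so these counts describe the lists and are no independent check. Isg15 and Irf7 of the type I list are among the genes that the study selected as higher in young than in adult cartilage after injury. The 7 receptor, kinase and STAT genes among the 9 had ratios between −0.15 and 0.79 in young and between 0.35 and 1.25 in adult cartilage. The type I targets ran from 0.94 to 3.17 in young and from 0.28 to 1.96 in adult cartilage, and the type II targets from 0.23 to 3.03 and from 0.57 to 2.40. The ranges of these 7 genes and of the targets overlapped except for the type I targets in young cartilage. Of the brakes, Ptpn2 at 0.94 lay just below the lowest type I target in young cartilage. After scaling Ptpn2, at 0.92, lay above the lowest type I target, at 0.90.

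These are libraries of whole tissue, in which fewer cells of a type and less RNA per cell cannot be told apart. The labelled cell type, the chondrocyte, was present by its markers, with 9 of 9 measured markers at 1 FPKM or more in every library. Col2a1, its main collagen, had 9349, 7903, 3173 and 3750 FPKM. The other 8 summed to 6196, 5520, 7917 and 6008 FPKM, so Col2a1 was lowest and the sum of the others highest in adult sham cartilage. Markers of other cells also differed between sham and injured cartilage. The summed FPKM of 12 macrophage markers was 193, 1851, 308 and 1626, with 11 of 12 higher by 2-fold or more at each age and Lyz2 the most abundant at 142, 1271, 183 and 1090 FPKM. The 10 neutrophil markers summed to 1227, 2505, 1621 and 1965 FPKM, and after scaling the adult sham sum of 2003 was above the adult injured sum of 1919. The 6 osteoclast markers summed to 278, 709, 357 and 1328, and the 6 endothelial markers to 14.9, 74.6, 16.8 and 61.6. The 9 T and NK cell markers were low, summing to 2.27, 4.86, 2.17 and 7.71 FPKM, and in each sham library 1 of them was at 0. All 9 were higher after injury at each age, as were 8623 of the 18181 genes tested in young and 12223 in adult cartilage. The most abundant of them, Nkg7, had 0.87, 1.43, 0.72 and 3.80 FPKM. IFN receptors, Janus kinases and these brakes are also expressed by blood cells, and the part of these cells in the values of the 9 genes was not tested.

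Other lists stood apart in the adult sham library or between the ages. The 8 muscle markers summed to 827, 645, 1453 and 420 FPKM, the 7 osteoblast markers to 565, 828, 4889 and 5014, the 6 B cell markers to 53.3, 74.2, 12.5 and 21.2, and the 7 erythroid markers to 9674, 18440, 6955 and 3031 (1401, 3119, 3371 and 220.1 without Hba-a2). The 6 synovial fibroblast markers summed to 2673, 1269, 3903 and 3543, of which Prg4 made up 2049, 421, 3565 and 2658, and the other 5 summed to 624, 847, 338 and 885. The adult sham library, in which Ifngr2, Ptpn2, Jak2, Stat2 and Socs1 were low, had the highest muscle and the lowest B cell sum of the 4, also without the most abundant gene of each list and after scaling. Of the 9 chondrocyte markers, 6 were lower and 1 higher by 2-fold or more in adult than in young sham cartilage, where 10.6% and 2.66% of the genes tested were. Their median log2 ratio was −1.59. The part of these cells in the values of the 9 genes was not tested, and the days 3 to 14 of that label cannot be told apart from its group.

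The genes whose pattern over the 4 libraries was most like that of 3 members were looked up in the 8055 genes that averaged 5 FPKM or more, by the largest difference between log2(FPKM + 1) values centred on their mean. For Ifngr1 these were Stxbp2, Rangap1 and Tax1bp3, within 0.027, 0.041 and 0.047, and 21 genes lay within 0.1. Stat2 had 4 genes within 0.1, and the nearest were Cfl1, Exosc1 and Csrp2 at 0.072, 0.089 and 0.093. Socs1 had 178 genes within 0.1, with Smarca4, Kctd5 and Kctd10 nearest at 0.010, 0.013 and 0.020, so its pattern was a common one. Among the members the most alike were Ifnar2 and Jak1, within 0.082, followed by Ifngr1 and Ifnar2, within 0.11, and the least alike were Ifnar2 and Ptpn2, which differed by up to 0.97. With 4 libraries such likeness is a description only.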

How the data were processed

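Poly-A selected RNA was sequenced as strand-specific paired-end libraries from 4 pools of cartilage. The authors deposited FPKM per gene and library on mm10, and the submitters' processing notes name HISAT2 2.1.0 and StringTie 1.3.4d among the tools. No counts were used. Low FPKM did not resolve into whole fragments (39.1% to 41.5% of low values lay within 0.1 of a step), so no counting error is given.

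All 24532 genes were read, and log2 ratios of FPKM + 1 were calculated for 18181 genes, those not at 0 throughout, with 2-fold as threshold, as deposited and after median-of-ratios scaling over genes above 0 in all 4 libraries. No test was possible with 1 library per group. The authors' unit carries a division by library size, which a few very abundant genes can shift. Members and lists were chosen with earlier results of these data known, and some of the lists draw on them. The result for 1 gene is not reported here.

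Named were all 9 members, IFN ligand genes above 0, other pathway genes past 2-fold after injury, with Tyk2 and Irf9 in any case, the top 3 targets of each type in young cartilage, and the 3 genes most like Ifngr1, Stat2 and Socs1. Socs4, Cish and Cxcl9 were named after their values were seen. Within-library ratios, the order and range of levels, distances between members and the values of single genes on every scale were added after the members' values were seen. Protein sequences were not analysed here. Alternatives were a pseudocount of 0.1 or 5 FPKM, TPM, quantile normalization, a filter at 1 FPKM, and thresholds of 1.5-fold and 3-fold. The scripts were tested on simulated data. Python 3.11.15, numpy 2.4.6, pandas 2.3.3 and matplotlib 3.10.9 were used.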

Additional observations from a re-analysis of the deposited data

Results flagged for a closer look

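Injury ratios had opposite signs at the 2 ages for 1 of the 9 genes and for 10 of the 27 other receptors, kinases, transcription factors and brakes. Of these 10, Tyk2 and Socs2 are named by the rule for named genes. Opposite signs were common, at 38.6% of all genes tested, and after median-of-ratios scaling the counts were 1 of 9 and 8 of 27 against 34.7% of all genes. The difference was not tested for any of them, since each ratio comes from 2 libraries. For Jak2 the young minus adult log2 ratio was −0.81, from −0.15 in young and 0.66 in adult cartilage, and it was −0.51 after median-of-ratios scaling. For Socs2 it was −2.13, from −0.83 and 1.31, and −1.88 after scaling. For Tyk2 it was 0.22, from 0.13 and −0.084, and on TPM both ratios were above 0, at 0.034 and 0.0052.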

How the results depend on the processing

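No paired analysis was possible because each group is 1 library and the labels carry no replicate numbers, and for the same reason no replicate could be left out. With no spread between replicates, a log2 shift of over 0.1 was taken as a change of a value. A pseudocount of 0.1 FPKM gave 11 other pathway genes past 2-fold in adult injury and a member median of −0.64 between the sham libraries. A pseudocount of 5 FPKM gave 4 other pathway genes in young injury, 1 member and 4 other pathway genes in adult injury, and 0 other pathway genes and a member median of −0.28 between the sham libraries. Median-of-ratios scaling gave 1 member and a median of 0.27 in adult injury, medians of −0.17 between the sham and −0.090 between the injured libraries, and a median age difference of 0.068. TPM gave medians of 0.29 in young and 0.70 in adult injury, −0.16 between the injured libraries and an age difference of −0.44. Quantile normalization gave 1 member, a median of 0.39 and 4 other pathway genes in adult injury, a median of −0.11 and 2 other pathway genes between the sham libraries, and an age difference of 0.057. At 1.5-fold, 2, 5 and 3 members and 11, 11 and 7 other pathway genes passed in young injury, adult injury and between the sham libraries, and 4 other pathway genes between the injured libraries, where 14.3%, 21.9%, 31.6% and 15.3% of all genes tested did. At 3-fold, 1 member passed in adult injury, and 4, 4 and 0 other pathway genes passed in young injury, adult injury and between the sham libraries, where 2.29%, 2.89% and 3.78% of all genes did. Past 2-fold in adult injury were 19.5% and 3.09% of all genes with the pseudocounts of 0.1 and 5, 7.31% after median-of-ratios and 6.68% after quantile scaling. With the pseudocount of 5 these shares were 2.32% in young injury and 4.92% between the sham libraries, and after quantile normalization 10.3% between the sham libraries. The filter at 1 FPKM changed no count of genes past 2-fold. The filter cannot move a single gene's ratio, and of 180 values of single members under the other pseudocounts and scales 94 kept within 0.1, 82 moved by more, 3 of Ifngr2 in adult injury fell below 2-fold (0.95 with a pseudocount of 5, 0.95 after median-of-ratios and 0.96 after quantile scaling), and 1, Stat2 in adult injury on TPM, passed it at 1.01.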
